A study of Homo sapiens with 12 samples.

Results

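APOL1, APOL2, APOL3 and APOL6 are apolipoprotein L genes of human chromosome 22, and they were followed here through 12 bulk RNA-seq libraries of hepatoma cells. They were chosen by symbol with the responses of these libraries already known, because APOL1 moves in opposite directions in the 2 cell lines when ARD1 is lowered. The 4 genes stand among 25720 genes listed for the libraries labelled Hep-3B and 25714 listed for Huh-7. The groups, of 3 libraries each, were Hep-3B cells given an siRNA against ARD1 (siARD1), Hep-3B cells given a negative-control siRNA, Huh-7 cells given siARD1, and Huh-7 cells given the negative-control siRNA. ARD1 is known as NAA10 in current gene names and catalyses the N-terminal acetylation done by the NatA complex, and the series concerns its part in glutathione synthesis and ferroptosis evasion. All groups received an siRNA, and the sources used here do not give the siRNA sequence, its dose or the harvest time.

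Apolipoprotein L proteins share a lipid-binding, membrane-active region. APOL1 is the secreted member of the family, made by the liver among other tissues, and as part of a dense HDL particle it lyses African trypanosomes by forming pores. APOL2, APOL3 and APOL6 stay inside the cell, and the family is known as a target of interferon gamma, with IRF1 among the factors that carry its response. APOL3 dissolves the membranes of bacteria in the cytosol of interferon-treated cells, and forced expression of APOL6 has been reported to kill cells.

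The genes were read against GENCODE v29 on GRCh38. APOL6 (ENSG00000221963) lies at chromosome 22, 35648395 to 35668409, on the plus strand. Some distance away follow APOL3 (ENSG00000128284, 36140330 to 36166177, minus strand), APOL2 (ENSG00000128335, 36226203 to 36239954, minus strand) and APOL1 (ENSG00000100342, 36253010 to 36267530, plus strand). APOL2 and APOL1 are therefore divergently transcribed neighbours with 13055 bases between them. No other annotated gene of that release overlaps any of the 4. Of the 3785 distinct 50-base stretches in APOL1 transcripts, 14 also occur in APOL2 and 9 in APOL3, so few reads of that length could be assigned to either gene of a pair.

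Total counts ran from 17327615 to 25960237 per library. NAA10 fell in both lines, to 13.6 ± 2.47 CPM (CPM scale counts to library size, here with TMM factors) after siARD1 against 55.3 ± 5.94 CPM in Hep-3B controls, and to 11 ± 1.87 CPM against 174 ± 23.4 CPM in Huh-7 controls (SD, n = 3 each). The log2 fold changes were -2.01 (SE 0.12, edgeR adjusted p = 1.36e-07) and -3.98 (SE 0.13, edgeR adjusted p = 1.66e-08). The libraries labelled Hep-3B go against that label, since ALB, known to be made by this line, had 0.564 to 6.20 CPM in them against 10689 to 12771 CPM in the Huh-7 libraries, and AFP had 0.260 to 1.97 against 3182 to 5281 CPM. They are therefore named by their label only. Markers of other cells were measured too, since endothelial cells and macrophages are known to express APOL genes. Summed over a list of 6 endothelial genes, 5 of them in each table, libraries labelled Hep-3B had 63.4 to 76.2 CPM after siARD1 and 53.3 to 65.9 CPM in controls, and Huh-7 had 11.3 to 13.3 CPM after siARD1 and 13.1 to 14.5 CPM in controls. Over 6 leukocyte genes, again with 5 in each table, the sums were 2.30 to 3.82 and 2.47 to 3.88 CPM in the Hep-3B pair, and 49.0 to 52.3 and 54.9 to 56.7 CPM in the Huh-7 pair, siARD1 before control. The fibroblast sums were 137 to 172 and 162 to 174 CPM, and 29.1 to 30.9 and 36.1 to 41.9 CPM, in the same order. Under the Hep-3B label the fibroblast sum was mostly LUM (mean 120 CPM after siARD1 and 141 in controls) and DCN (24.2 and 23.1). COL1A1 (5.37 and 3.92), COL3A1 (0.626 and 0.663) and PDGFRB (0.734 and 0.234) were low there. In Huh-7, LUM (1.66 and 1.13) and DCN (0.0520 and 0) were low, and COL1A2 (16.2 and 25.5) was the largest part. The endothelial sum of the libraries labelled Hep-3B was nearly all KDR and PECAM1, whereas the defining genes VWF (mean 0.202 CPM after siARD1 and 0.230 in controls) and CDH5 (0.202 and 0.349) were near 0, as were VWF (0.0518 and 0.108) and CDH5 (0.417 and 0.385) in Huh-7. The leukocyte gene PTPRC, with 0.0579 and 0.121 CPM in the Hep-3B pair and 0.277 and 0.396 CPM in the Huh-7 pair, was near 0 too, and the Huh-7 sum was mostly LCP1. The part of such cells in the results was not tested, and in bulk RNA fewer cells expressing a gene cannot be told apart from less RNA per cell.

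The first question was how each member stood after siARD1 in each line. These contrasts chose the genes, so the values that follow are a description and carry no test. In the libraries labelled Hep-3B, APOL1 was abundant in every library and lower after siARD1, with 280, 295 and 286 CPM after siARD1 against 447, 480 and 511 CPM in controls. The groups did not overlap, and the fitted log2 fold change was -0.74 (SE 0.06), or 0.599 of the control level. In Huh-7 the same gene was scarce, with 5.16, 5.92 and 6.80 CPM after siARD1 against 1.52, 1.59 and 1.84 CPM in controls. All siARD1 libraries lay above all controls there, at a log2 fold change of 1.84 (SE 0.19), or 3.58-fold. The Huh-7 values rest on 344 counts over the 3 siARD1 libraries and 104 over the 3 controls (exact Poisson 95% intervals 309 to 382 and 85 to 126, which cover counting error only). By size, the APOL1 difference ranked 479th of 8089 genes that were lower in the libraries labelled Hep-3B and 38th of 7819 genes that were higher in Huh-7.

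APOL2, whose protein sits on membranes inside the cell, showed the same opposite signs at a smaller size. Libraries labelled Hep-3B had 40.2, 39.7 and 43.9 CPM after siARD1 against 60.2, 60.3 and 67.3 CPM in controls, a log2 fold change of -0.60 (SE 0.08). In Huh-7 it had 51.8, 59.7 and 59.7 CPM after siARD1 against 38.5, 48.4 and 41.6 CPM in controls, a log2 fold change of 0.41 (SE 0.08). Neither pair of groups overlapped, so APOL2 was the lower of its groups after siARD1 in one line and the higher in the other.

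APOL3, the antibacterial member, was the scarcest of the 4 in every group, per length as well as in CPM. Among the libraries labelled Hep-3B it had 3.74, 4.69 and 4.51 CPM after siARD1 against 6.0, 5.80 and 5.48 CPM in controls, a log2 fold change of -0.41 (SE 0.16). The Huh-7 libraries held 16, 12 and 9 counts of APOL3 after siARD1 against 5, 8 and 3 counts in controls, too few to pass the filter on low counts in that line. Its Huh-7 sums were 37 counts (exact Poisson 95% interval 26.1 to 51.0) after siARD1 and 16 counts (9.15 to 26) in controls, and a fit of all 12 libraries gave a log2 fold change of 1.28 (SE 0.42). The groups of 3 did not overlap in either line, with APOL3 lower after siARD1 in one and higher in the other.

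APOL6 was the exception, higher after siARD1 in both lines. The libraries labelled Hep-3B had 130, 121 and 130 CPM after siARD1 against 110, 106 and 115 CPM in controls, a log2 fold change of 0.20 (SE 0.06). Those of Huh-7 had 77.1, 73.2 and 65.3 CPM after siARD1 against 46.9, 48.4 and 50.2 CPM in controls, a log2 fold change of 0.57 (SE 0.07). The groups did not overlap in either line.

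**Figure D1:**
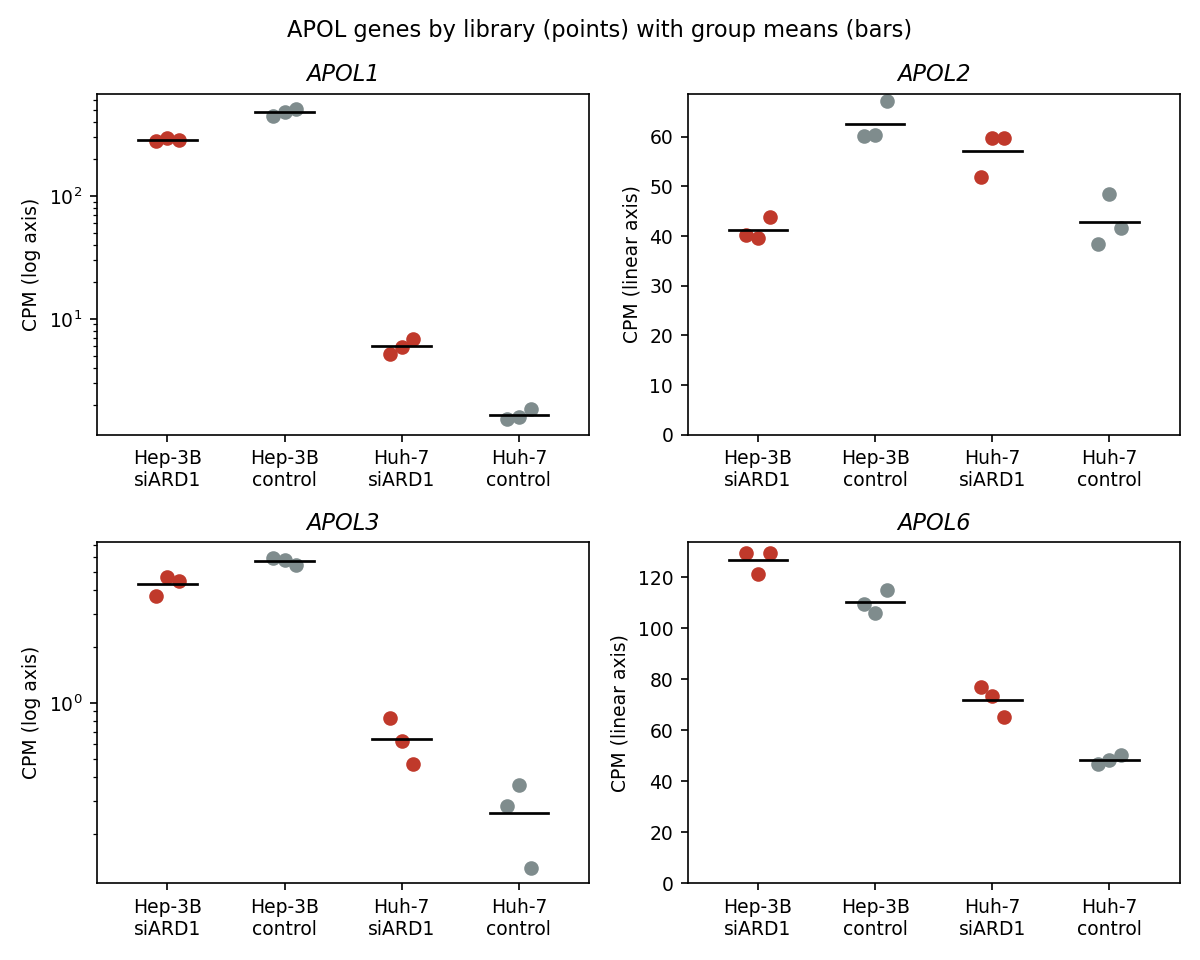
CPM of each APOL gene by library (points) with group means (black bars), siARD1 libraries in red and controls in grey; APOL1 and APOL3 are on log axes, APOL2 and APOL6 on linear axes from 0. APOL1, APOL2 and APOL3 are lower after siARD1 in the libraries labelled Hep-3B and higher in Huh-7, while APOL6 is higher in both, and APOL1 differs most between the lines (287 and 479 CPM on average in the Hep-3B groups, 5.96 and 1.65 CPM in the Huh-7 groups).

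As a measure of how usual such values are, edgeR's quasi-likelihood test with Benjamini-Hochberg adjustment (threshold 0.05) called 32.2% of 15762 genes in the libraries labelled Hep-3B and 40.1% of 15919 in Huh-7. Of the 4 members, 4 passed the filter in the first line and 3 were called (APOL1 and APOL2 lower, APOL6 higher), and 3 passed in the second and 3 were called, all higher. Among all tested genes of the first line, the 3 siARD1 values lay wholly below the 3 control values in 22.3% and on either side in 45.0%, and in the second they lay wholly above in 26.1%. Since these contrasts were used to choose the genes, nothing is read from the members' counts. Of 13800 genes tested in both lines, 563 (4.08%) were called lower after siARD1 in the libraries labelled Hep-3B and higher in Huh-7, the pattern of APOL1 and APOL2, while 506 (3.67%) were called the other way round, and 1137 (8.24%), APOL6 among them, in the same direction in both. APOL1 was also 1 of 11 genes (0.0797%) called at least 0.5 lower in the first line and at least 1 higher in the second on the log2 scale. Those limits were chosen with the values of APOL1 in view, so its place among the 11 was fixed beforehand. The difference between the lines, Hep-3B minus Huh-7 log2 fold change in a fit of all 12 libraries that called 31.4% of genes (15.2% with a lower response in the libraries labelled Hep-3B), was -2.56 (SE 0.16) for APOL1, -1.69 (SE 0.46) for APOL3, -1.0 (SE 0.12) for APOL2 and -0.35 (SE 0.09) for APOL6. Thus even APOL6, higher in both lines, was less so in the libraries labelled Hep-3B.

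How far the control groups of the lines differ in the level of each gene was not part of the choice of members and was tested. Between controls, the libraries labelled Hep-3B held more of all 4 genes than Huh-7, in an edgeR fit that called 80.7% of 17122 genes, 40.0% higher in the libraries labelled Hep-3B and 40.7% lower. APOL1 was 322-fold higher (log2 fold change 8.33, SE 0.10, edgeR adjusted p = 7.66e-32) and was ranked 156th of 8415 genes higher in the libraries labelled Hep-3B. APOL3 differed by 4.62 (SE 0.29, edgeR adjusted p = 8.92e-15), APOL6 by 1.35 (SE 0.07, edgeR adjusted p = 3.42e-17) and APOL2 by 0.71 (SE 0.08, edgeR adjusted p = 6.80e-09). APOL3 passed the filter on low counts through the libraries labelled Hep-3B, and with no filter its adjusted p was 2.31e-22 at a log2 fold change of 4.63. All 3 Hep-3B control values lay above all 3 Huh-7 control values for each gene. Such a gap between the control groups, in either direction, was usual, at 82.0% of all tested genes.

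After siARD1 the lines were closer for every member, and for APOL2 their order turned. The fit called 81.8% of genes between the siARD1 groups, 41.3% higher in the libraries labelled Hep-3B and 40.5% lower. APOL1 was still 54.6-fold higher in the libraries labelled Hep-3B (log2 fold change 5.77, SE 0.09, edgeR adjusted p = 6.07e-30), APOL6 differed by 1.0 (SE 0.07, edgeR adjusted p = 2.29e-14) and APOL3 by 2.93 (SE 0.26, edgeR adjusted p = 1.66e-11). APOL3 again passed the filter through the libraries labelled Hep-3B, against 37 counts over the 3 Huh-7 siARD1 libraries, and with no filter it differed by 2.92 (edgeR adjusted p = 1.12e-15). APOL2 was lower in the libraries labelled Hep-3B, at -0.29 on the log2 scale (SE 0.08, edgeR adjusted p = 0.00264). The line contrasts share libraries with the siARD1 contrasts that chose the members. The narrowing and the turned order of APOL2 therefore restate the differences given above. For the same reason, the members' adjusted p between the siARD1 groups are not independent of that choice.

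Levels of the 4 genes can be set against each other only per length, as TPM (the length-scaled share of a library's transcripts, here over the union of annotated exons). After siARD1 the libraries labelled Hep-3B had 312 ± 9.89 TPM of APOL1, 47.9 ± 1.46 of APOL6, 45.3 ± 2.13 of APOL2 and 2.80 ± 0.34 of APOL3. Their controls had 501 ± 27.4 TPM of APOL1, 66.1 ± 3.63 of APOL2, 40.1 ± 1.45 of APOL6 and 3.59 ± 0.20 of APOL3 (SD, n = 3 each). APOL6 and APOL2 overlapped after siARD1 (46.3 to 49.0 and 44.0 to 47.7 TPM), so their order there is not settled. APOL1 was among the most abundant transcripts of these libraries, ranked 377th of 23128 genes with any counts after siARD1 and 199th of 22892 in controls.

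In Huh-7 the order of the genes was another. After siARD1 it ran APOL2 (57.3 ± 4.50 TPM), APOL6 (24.9 ± 2.64), APOL1 (5.91 ± 0.70) and APOL3 (0.381 ± 0.11), and in controls APOL2 (43.3 ± 4.24 TPM), APOL6 (16.9 ± 0.47), APOL1 (1.65 ± 0.16) and APOL3 (0.155 ± 0.069; SD, n = 3 each). No neighbours in this order overlapped. The Huh-7 rank of APOL1 was 10411 of 22786 genes after siARD1 and 13919 of 23019 in controls.

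The gene that made up most of the family's transcripts was therefore APOL1 in one line and APOL2 in the other. APOL1 gave 76.5 ± 1.01% of the summed TPM of the 4 genes after siARD1 and 82.0 ± 0.62% in controls in the libraries labelled Hep-3B, but 6.69 ± 0.77% after siARD1 and 2.68 ± 0.32% in controls in Huh-7. APOL2 gave 11.1 ± 0.58% and 10.8 ± 0.30% in the first line and 64.7 ± 2.69% and 69.7 ± 2.31% in the second, siARD1 before control. APOL6 gave 11.8 ± 0.59% and 6.56 ± 0.32%, and 28.2 ± 3.23% and 27.3 ± 2.10%, in the same order (SD, n = 3 each). The summed level was 408 ± 8.34 TPM after siARD1 against 611 ± 30.8 TPM in controls in the libraries labelled Hep-3B, and 88.5 ± 4.57 TPM against 62.0 ± 4.06 TPM in Huh-7.

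**Figure D2:**
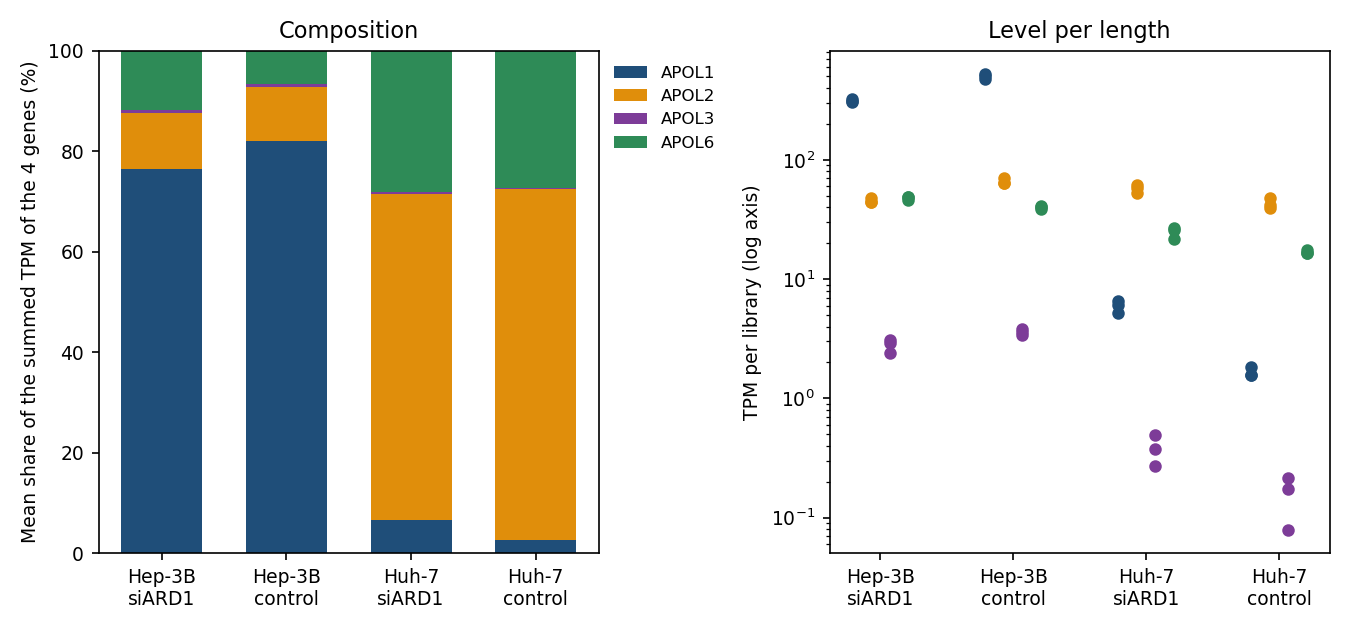
Left, mean share of each APOL gene in the summed TPM of the 4 genes, by group; right, TPM of each gene in each library on a log axis, with the same colours. APOL1 fills 76.5 to 82.0% of the sum in the libraries labelled Hep-3B, whereas APOL2 leads in Huh-7 with 64.7 to 69.7%.

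Because APOL1 was so much more abundant in the libraries labelled Hep-3B, its Huh-7 reads were set beside genes of the other line that were nearly absent. In all, 26 genes had at least 100 CPM in the libraries labelled Hep-3B and at most 1 part in 1000 of that in Huh-7. Pooled, they stood in Huh-7 at 0.0384 to 0.0509% of their Hep-3B level after siARD1 and at 0.0390 to 0.0536% in controls. These ranges overlap, and they are low because the genes were chosen for being low in Huh-7. APOL1 stood at 1.19 to 1.57% of its own Hep-3B mean in Huh-7 after siARD1 and at 0.352 to 0.432% in controls. The other way round, 25 genes had at least 100 CPM in Huh-7 and at most 1 part in 1000 of that under the Hep-3B label. Pooled, they stood in the libraries labelled Hep-3B at 0.0127 to 0.0151% of their Huh-7 level after siARD1 and at 0.0437 to 0.0611% in controls. These latter ranges do not overlap, and the reason was not tested.

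**Figure D3:**
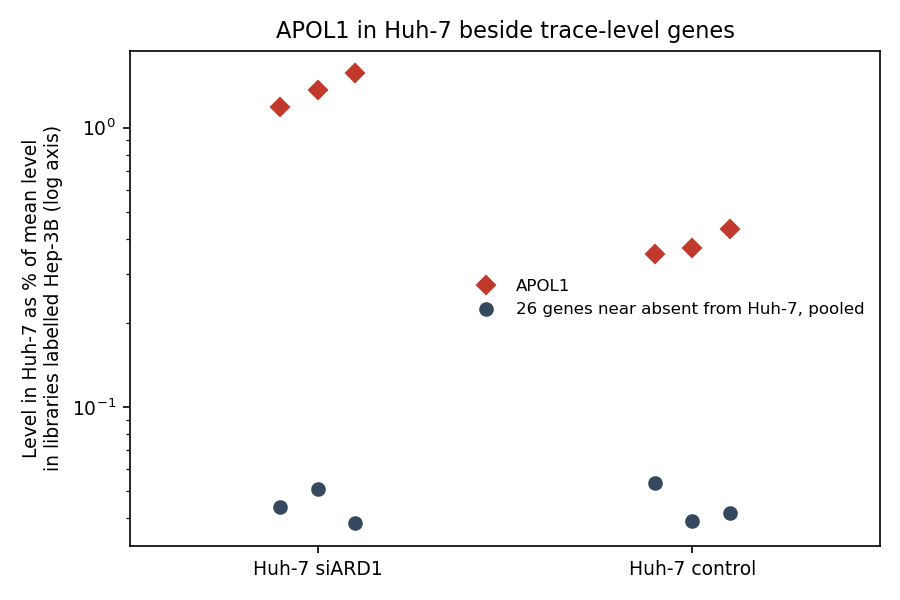
Level in each Huh-7 library as a percentage of the mean level in the libraries labelled Hep-3B, on a log axis, for APOL1 (red diamonds) and for 26 genes near absent from Huh-7, pooled (dark circles). APOL1 lies at 1.19 to 1.57% after siARD1 and 0.352 to 0.432% in controls, while the 26 genes stay between 0.0384 and 0.0536% in all 6 libraries.

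The other genes of the family were scarce or unlike the members. APOL4 had 37 counts over the 3 siARD1 libraries and 30 over the 3 controls in the libraries labelled Hep-3B (log2 fold change 0.18, SE 0.42, edgeR adjusted p = 0.781), and 0 counts after siARD1 against 4 in controls in Huh-7. APOL5 had 0 counts after siARD1 and 2 in controls in the libraries labelled Hep-3B and was not analysed here in Huh-7. APOLD1, a relative on chromosome 12 known from endothelial cells, fell in Huh-7 to 3.31 ± 0.057 CPM after siARD1 against 4.71 ± 0.26 CPM in controls (log2 fold change -0.51, SE 0.17, edgeR adjusted p = 0.0195). In the libraries labelled Hep-3B it had 9.21 ± 1.04 CPM after siARD1 and 7.81 ± 0.79 CPM in controls (SD, n = 3 each; 0.24, SE 0.14, edgeR adjusted p = 0.199), and the difference between lines passed (0.77, SE 0.21, edgeR adjusted p = 0.00640). APOLD1 shares 1841 exon bases with DDX47 on the same strand, so its counts are less certain.

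Genes of the interferon gamma axis, from its receptors and kinases to its targets, went mostly upward in Huh-7 and both ways in the libraries labelled Hep-3B. In Huh-7, 14 of 31 tested members rose and 5 fell (median log2 fold change 0.31, against -0.0076 over all genes tested), where 21.2% of all tested genes were called higher and 18.9% lower. In the libraries labelled Hep-3B, 7 of 31 rose and 9 fell (median -0.10, against -0.011 over all genes), where 16.8% of all tested genes were called higher and 15.3% lower. In that line the count of falls was 5 without control 2 and 5 without siARD1 library 1, and in Huh-7 it was 3 without control 2. The lines share no libraries, and the lists were chosen with earlier results of these data known.

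IRF1, a transcriptional activator of interferon responses, rose in both lines, to 43.9 ± 0.54 CPM after siARD1 against 37.5 ± 1.59 CPM in the libraries labelled Hep-3B (0.23, SE 0.07, edgeR adjusted p = 0.0262) and to 32.8 ± 1.73 against 23.8 ± 1.35 CPM in Huh-7 (0.46, SE 0.08, edgeR adjusted p = 8.12e-05; SD, n = 3 each). IRF2, its counterpart, did not pass in either line (-0.04, edgeR adjusted p = 0.707, and -0.07, edgeR adjusted p = 0.540).

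Some targets of the same axis had the opposite signs seen for APOL1 and APOL2. Of 29 members tested in both lines, 10 were called in both, of which 5 were lower in the libraries labelled Hep-3B and higher in Huh-7, 0 the other way round, 4 higher in both and 1 lower in both. Over all genes tested in both lines these shares were 4.08% for the first pattern, 3.67% for its reverse and 8.24% for one direction in both. The 5, named for being few and after their values were seen, were the guanylate-binding protein genes GBP1, GBP2 and GBP3, the immunoproteasome subunit gene PSMB10 and the MHC class I light chain gene B2M. GBP2 fell to 77.3 ± 1.56 CPM after siARD1 against 121 ± 0.74 CPM in the libraries labelled Hep-3B (-0.65, SE 0.06, edgeR adjusted p = 1.72e-06). In Huh-7 it rose to 18.4 ± 2.82 CPM after siARD1 against 9.04 ± 0.84 CPM in controls (1.03, SE 0.12, edgeR adjusted p = 6.29e-07; SD, n = 3 each).

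Among other members, NLRC5, the activator of MHC class I genes, rose in both lines (0.70, edgeR adjusted p = 0.000341 in the libraries labelled Hep-3B, and 0.73, edgeR adjusted p = 0.000643 in Huh-7), as did the kinase gene JAK1 (0.34, edgeR adjusted p = 0.000344, and 0.48, edgeR adjusted p = 3.34e-07). The tryptophanyl-tRNA synthetase gene WARS1 also rose in both (0.93, edgeR adjusted p = 0.0409, and 0.82, edgeR adjusted p = 6.30e-10). The adhesion gene ICAM1 rose in Huh-7 (0.71, edgeR adjusted p = 7.21e-09) and was at -0.19 in the libraries labelled Hep-3B (edgeR adjusted p = 0.0539). The aminopeptidase gene LAP3 rose in Huh-7 (0.50, edgeR adjusted p = 2.11e-07) and was at 0.0051 in the libraries labelled Hep-3B (edgeR adjusted p = 0.973).

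Type I interferon-stimulated genes, the antiviral arm, were likewise called in both directions. In Huh-7, 12 of 30 tested members rose and 5 fell (median 0.25), where 21.2% of all tested genes were called higher and 18.9% lower. They included the ubiquitin ligase gene DTX3L (0.61) and the RNA sensor gene OAS3 (0.52) higher and the RNA-binding antiviral gene IFIT1 (-0.79) lower, with edgeR adjusted p from 3.62e-08 to 5.48e-06. In the libraries labelled Hep-3B, 4 of 36 rose and 7 fell (median -0.075), shares near the 16.8% of all tested genes called higher and 15.3% called lower. The falls with the smallest p were STAT2 (-0.48), OAS1 (-0.37) and PARP9 (-0.38) (edgeR adjusted p from 4.99e-05 to 0.00233). Of the Hep-3B counts, falls were 4 without control 2, without control 3 or without siARD1 library 1, and rises were 2 without control 1 or without siARD1 library 2 and 1 without control 2. Falls in Huh-7 were 3 without control 2, without siARD1 library 1 or without siARD1 library 2. Of 29 members tested in both lines, 6 were called in both. Lower in the first line and higher in the second were 3 (OAS1, PARP9 and DTX3L), with 0 the other way round, 1 higher in both and 2 lower in both. Over all genes tested in both lines these shares were 4.08% for the first pattern, 3.67% for its reverse and 8.24% for one direction in both.

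**Figure D4:**
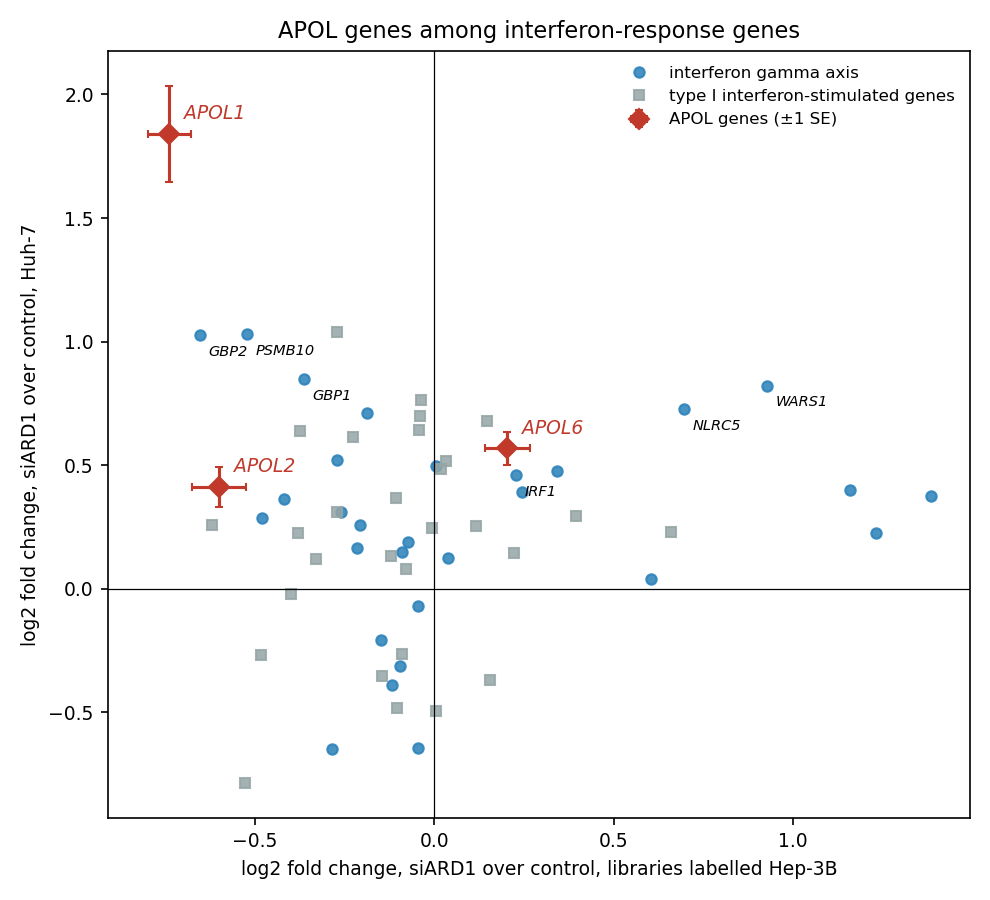
Log2 fold change after siARD1 in the libraries labelled Hep-3B (x) against that in Huh-7 (y) for genes of the interferon gamma axis (blue circles), type I interferon-stimulated genes (grey squares) and the 3 APOL genes tested in both lines (red diamonds, bars ±1 SE). APOL1 (-0.74 and 1.84) and APOL2 lie at the upper left beside GBP2, PSMB10 and GBP1, and APOL6 (0.20 and 0.57) at the upper right beside IRF1.

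Genes of the HDL and trypanolytic particle, with which secreted APOL1 circulates, did not share the Huh-7 direction of APOL1. In Huh-7, 0 of 17 tested members rose and 7 fell (median -0.22), where 21.2% of all tested genes were called higher and 18.9% lower. They included APOC3 (-1.04), the lipocalin gene APOM (-0.96) and CLU (-0.33), with edgeR adjusted p from 7.43e-10 to 5.48e-05. Among the 10 hepatocyte markers, 5 of 10 also fell and 0 rose in Huh-7 (sum 24854 to 28713 CPM after siARD1 and 32521 to 33673 CPM in controls). In the libraries labelled Hep-3B, 5 of the 8 tested fell and 0 rose (sum 215 to 252 and 252 to 273 CPM). The fallen genes there included ALB (mean 0.796 CPM after siARD1 and 5.05 in controls) and AFP (0.305 and 1.65), both at trace. For these markers the same shares of all genes apply as for the HDL list, and their part in the HDL result was not tested. APOA1, the main HDL protein, fell to 507 ± 93.7 CPM after siARD1 against 805 ± 49.1 CPM in Huh-7 controls (SD, n = 3 each; -0.67, SE 0.14, edgeR adjusted p = 0.00820). HPR, the haptoglobin-related partner of APOL1 in the trypanolytic particle, had 18.6 ± 5.25 CPM after siARD1 and 25 ± 4.53 CPM in controls (SD, n = 3 each; -0.44, SE 0.23, edgeR adjusted p = 0.182), and its reads are hard to separate from those of HP, a close relative. For the Hep-3B label, 9 of 20 listed genes passed the filter, 0 rose and 3 fell, where 16.8% of all tested genes were called higher and 15.3% lower. The 3 were APOA4 (-2.88), the cholesterol exporter gene ABCA1 (-0.36) and APOC1 (-0.53), with edgeR adjusted p from 0.000507 to 0.00151. Without control 3 in that line, 1 rose. APOA4 was at trace there, with 0.117 ± 0.087 CPM after siARD1 and 0.932 ± 0.15 CPM in controls (SD, n = 3 each). In Huh-7 it had 0.884 ± 0.58 CPM after siARD1 and 0.911 ± 0.040 CPM in controls (SD, n = 3 each; -0.04, edgeR adjusted p = 0.944). APOA1 did not pass the filter in the libraries labelled Hep-3B, with 0.242 ± 0.14 CPM after siARD1 and 0.379 ± 0.23 CPM in controls (SD, n = 3 each).

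Along chromosome 22, the neighbours of the cluster were called higher in 5 of 9 tested genes and lower in 1 in Huh-7, and higher in 0 of 11 and lower in 4 in the libraries labelled Hep-3B (2 without siARD1 library 1). Of all tested genes, 21.2% were called higher and 18.9% lower in Huh-7, and 16.8% higher and 15.3% lower in the libraries labelled Hep-3B. MYH9, the non-muscle myosin gene next to APOL1, rose in Huh-7 to 824 ± 30.0 CPM after siARD1 against 651 ± 7.15 CPM in controls (0.34, SE 0.05, edgeR adjusted p = 2.19e-05). Under the Hep-3B label it had 1242 ± 35.0 CPM after siARD1 and 1195 ± 25.9 CPM in controls (SD, n = 3 each; 0.06, SE 0.05, edgeR adjusted p = 0.452). FOXRED2, which encodes a factor of ER-associated degradation, had opposite signs, -0.41 in the libraries labelled Hep-3B and 0.80 in Huh-7 (edgeR adjusted p = 0.010 and 7.52e-10), and so had the translation factor gene EIF3D (-0.31 and 0.17, edgeR adjusted p = 0.00127 and 0.0150). The thioredoxin gene TXN2 fell in the libraries labelled Hep-3B (-0.34, edgeR adjusted p = 0.00590) and the haem oxygenase gene HMOX1 rose in Huh-7 (0.67, edgeR adjusted p = 2.08e-07).

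**Figure D5:**
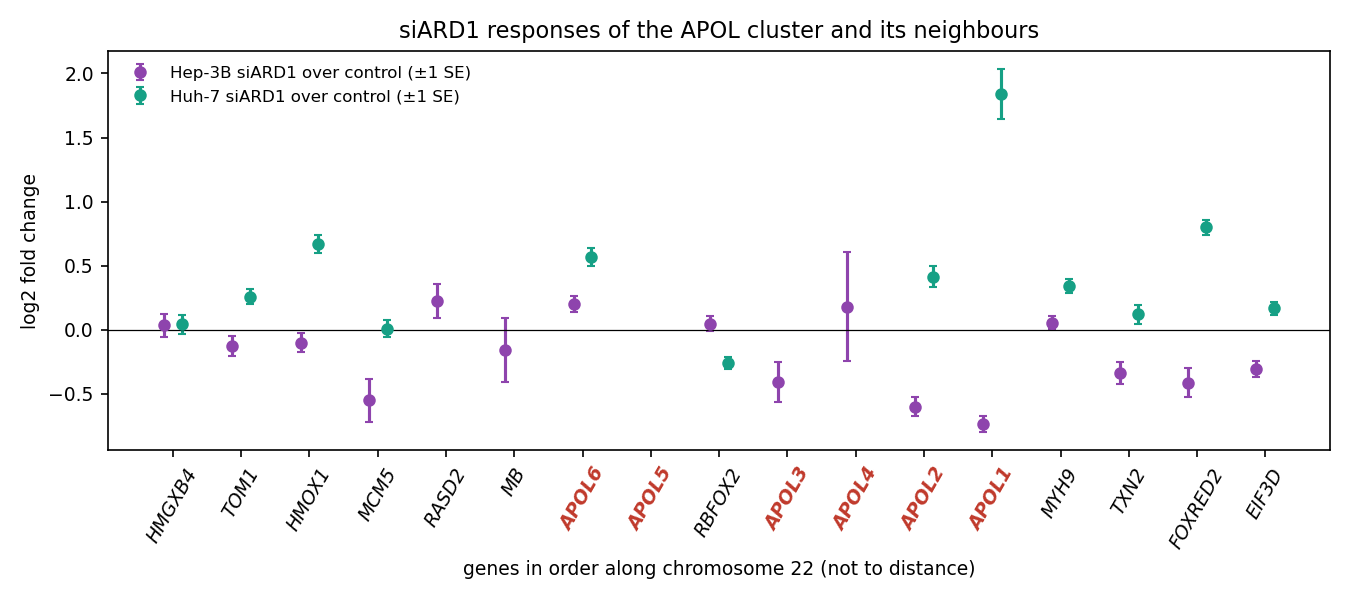
Log2 fold change after siARD1 (points, bars ±1 SE) for genes in their order along chromosome 22, not to distance, in the libraries labelled Hep-3B (purple) and Huh-7 (green); genes with no point did not pass the filter in that line. APOL1 has the largest gap between the lines of the genes shown (-0.74 and 1.84), and FOXRED2 further along also has opposite signs (-0.41 and 0.80).

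The genes whose pattern was most like that of each member were found by the root mean square difference of log2 CPM, centred within each line, over the 12 libraries and 12295 genes. For APOL1, whose own root mean square deviation was 0.69, the nearest were LOXL4, a lysyl oxidase gene (0.16), the osteopontin gene SPP1 (0.18), the collagen prolyl hydroxylase gene P3H2 (0.21), the transcription factor gene MYC (0.23) and the lens filament gene BFSP1 (0.24). All 5 were lower after siARD1 in the libraries labelled Hep-3B (log2 fold change -0.53 to -0.33) and higher in Huh-7 (1.40 to 1.87). They were chosen for nearness to APOL1 in these same libraries, so the shared signs follow largely from that choice. For APOL2 they were TARBP2, a partner of Dicer (0.065), the ribosomal RNA processing gene RRP1 (0.068) and the tRNA methyltransferase gene TRMT5 (0.069). For APOL3 they were SSUH2 (0.21), ARMC5 (0.22) and NDUFA4L2 (0.23), and for APOL6 CXXC5 (0.056), the ubiquitin ligase gene RNF115 (0.059) and ZNF622 (0.063). No member was among the 10 genes nearest to another, but APOL3, which did not pass the filter in Huh-7, was not a candidate. The smallest distance between members was 0.31, for APOL2 and APOL6.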

How the data were processed

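RNA-seq was measured in 12 libraries, 3 per group. Per the labels' protocols, RNA was taken with Trizol and, after rRNA removal, built into strand-specific libraries. Per the submitters' processing notes, cutadapt 4.6 and STAR 2.7.11b were used with GRCh38. The authors deposited raw counts per Ensembl gene, one table per line. How reads were counted (tool, gene models, strand) is not given in the sources used here. Symbols were found for 25701 and 25698 genes, and 23740 and 23662 were found in GENCODE v29, which gave positions and lengths. All columns were mapped to samples.

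Each line was fitted alone in edgeR 4.0.16 (R 4.3.3): filterByExpr (minimum count 10, minimum total 15; 15762 and 15919 genes kept), TMM factors and a robust quasi-likelihood F-test with Benjamini-Hochberg adjustment over all tested genes at 0.05. Contrasts between lines came from one fit of all 12 libraries over genes in both tables (17122 kept). SEs were taken as the size of the log2 fold change divided by the root of F, an approximation that is poor at few counts. CPM are TMM-scaled within a line, and TPM use the union of exons. Log2 CPM for likeness used a prior count of 2. The fits were also run on simulated data with the same spread for every gene and changes placed only in well-counted genes. Such data do not cover genes as scarce as APOL3 in Huh-7, and no result here rests on them. Nothing says that replicates came from separate cultures, so p-values measure only the spread between these libraries. Their number and the counts given set the precision.

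The members and gene lists were chosen with earlier results of these data known. Named by rule were the members, the other APOL genes, IRF1, IRF2, APOA1, HPR, MYH9 and NAA10, the 3 called genes of smallest p per list and line, and the nearest genes (5 for APOL1, 3 for each other member, of genes averaging at least 1 CPM in each line). One further gene of that rule is not reported here. Same-numbered libraries were not treated as pairs. Alternatives were DESeq2 1.42.0, limma-voom (limma 3.58.1), upper-quartile or RLE factors, 2 other filters, a false discovery rate of 0.01, one fit of all libraries or fits of 6, a replicate block, each library left out in turn, and longest-transcript lengths. Promoter and protein sequences of the members were not used here. Plots used Python 3.11.15 with matplotlib 3.10.9.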

Additional observations from a re-analysis of the deposited data

Results flagged for a closer look

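APOL1, APOL2 and APOL3 were lower in every siARD1 library labelled Hep-3B than in any control and higher in every Huh-7 siARD1 library than in any control. The difference between the lines, Hep-3B minus Huh-7, was -2.56, -1.0 and -1.69 on the log2 scale. It was not tested for these genes, since this pattern chose them. Of all tested genes, 22.3% lay wholly below the controls after siARD1 under the Hep-3B label and 26.1% wholly above in Huh-7. The share doing both was not counted. In Huh-7, APOL3 rests on 37 counts over the siARD1 libraries and 16 over the controls.

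Leaving out the nearest genes, 29 other genes named by rule were in the fit of all 12 libraries. ALB, AFP, GBP1, GBP3, PSMB10 and B2M are not among the 29. For 17 of the 29, the siARD1 response differed between the lines by edgeR's interaction test after Benjamini-Hochberg adjustment (31.4% of 17122 genes passed). Most of these genes were named for a small p in one line of the same libraries, which favours a difference, so the count is not comparable with that share. Responses were lower in the libraries labelled Hep-3B than in Huh-7 for the interferon targets GBP2 (-1.66, adjusted p = 8.55e-11), OAS1 (-0.99, 3.48e-07), ICAM1 (-0.88, 1.73e-07), DTX3L (-0.82, 9.56e-08), PARP9 (-0.59, 0.000606), LAP3 (-0.48, 0.000400) and OAS3 (-0.47, 0.000274). They were lower as well for the chromosome 22 genes FOXRED2 (-1.19, 2.27e-08), HMOX1 (-0.75, 3.04e-06), EIF3D (-0.45, 0.000119), TXN2 (-0.44, 0.00446) and MYH9 (-0.27, 0.00834), and for the lipid genes APOA4 (-2.82, 0.00404) and ABCA1 (-0.28, 0.0208). Responses were higher in the libraries labelled Hep-3B for NAA10 (2.0, 1.56e-05), which fell less there, for APOLD1 (0.77, 0.00640) and for CLU (0.42, 0.000280). Among other interferon genes named by rule, the difference did not pass for IRF1 (-0.22, adjusted p = 0.138), STAT2 (-0.20, 0.0942) or JAK1 (-0.12, 0.276). Nor did it pass for WARS1 (0.12, 0.768), NLRC5 (-0.015, 0.962), IFIT1 (0.27, 0.322) or IRF2 (0.042, 0.825).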

How the results depend on the processing

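No member changed sign, and no call between the lines was lost, under any alternative run. Left out one at a time, libraries moved the APOL3 difference between lines from -2.06 (without Huh-7 control 2) to -1.35 (without Huh-7 control 3). The Huh-7 value of APOL3 ran from 0.96 to 1.66 in the 4 such fits in which it passed the filter, and was 1.3 with no filter. A false discovery rate of 0.01 called 3073 genes in the libraries labelled Hep-3B, against 5070 at 0.05. There it left 4 falls in the interferon gamma axis, 1 rise and 3 falls among type I genes and 2 falls among chromosome 22 neighbours, and in Huh-7 3 falls among type I genes. With longest-transcript lengths, APOL1 averaged 275 TPM after siARD1 and 441 in controls labelled Hep-3B, and 1.49 in Huh-7 controls. APOL3 averaged 3.42 and 4.39 TPM in the Hep-3B pair. APOL6 averaged 36.0 and 30.1 TPM in the Hep-3B pair and 19.0 and 13 TPM in the Huh-7 pair, siARD1 before control, so that APOL6 fell below APOL2 (44.1 TPM) after siARD1 in the libraries labelled Hep-3B. With all 12 libraries in one fit, 5 HDL genes fell and 1 rose in the libraries labelled Hep-3B.

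With the replicate number as a block, 5597 genes were called in the libraries labelled Hep-3B and 6328 in Huh-7. Same-numbered libraries correlated at 0.034, 0.065 and 0.064 in the first line, each best with its own number, and at 0.052, -0.065 and 0.0075 in Huh-7. The numbers were not taken as pairs in either line. For the libraries labelled Hep-3B a pairing of replicates is possible from these values, and the main fit does not use it. The block changed no direction of a member. Alternatives for the contrast of the siARD1 groups, and limma-voom and the filters for the difference between lines, were added after seeing the data.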

Other observations

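Of 13800 genes tested in both lines, 11 (0.0797%) were called lower by at least 0.5 on the log2 scale after siARD1 in the libraries labelled Hep-3B and higher by at least 1 in Huh-7. These limits were set after the values of APOL1 were seen. Beside APOL1 they were GBP2, PSMB10, the transcription factor gene MYC (-0.53 and 1.59), the aldo-keto reductase gene AKR1B10 (-0.55 and 6.67), the growth factor carrier gene IGFBP3 (-0.61 and 1.05), the lipid droplet gene CIDEC (-0.70 and 1.38), LAD1 (-0.92 and 1.06), NHLRC1 (-1.5 and 1.76), NMRAL2P (-0.79 and 2.35) and LINC01285 (-1.01 and 1.38).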
